A study of Mus musculus with 10 samples.

Results

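The genes described here are the splicing factors and heterogeneous nuclear ribonucleoproteins (hnRNPs) of Bergmann glia: every gene with a symbol that starts with Srsf or Sfrs, Hnrnp, Sf3a or Sf3b, U2af, Snrp or Prpf and that was read by at least 1 probe set naming no other gene. Of 17919 genes measured, 62 fitted this rule, read by 174 probe sets. They fall into 6 families by symbol: 10 SR proteins, 19 hnRNPs, 9 Sm and snRNP proteins, 9 SF3 proteins, 3 U2AF proteins and 12 PRPF proteins. Some protein-coding genes with a fitting symbol gave no value of their own. Among them, Snrpa, Snrpd1, Snrpd2, Hnrnpa3 and Hnrnpa1l2-ps2 were named only by probe sets that name several genes, and Srsf7 had no probe set paired with it here.

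The measurements came from 10 single cells, 5 at postnatal day 30 (P30) and 5 at postnatal day 6 (P6), all from the mid-sagittal cerebellum of GFAP-GFP mice, a reporter line in which the Gfap promoter drives GFP in astroglia. Bergmann glia are the radial astroglia of the cerebellar cortex; cells were picked by hand for strong GFP and a bushy process on 1 side of the soma, and a cell's cDNA was used only if astroglial markers were found and neuronal markers were not. The cDNA of each cell was amplified by PCR and hybridised to 1 Affymetrix array. No label names the animal a cell came from, so each age counts as 1 sample: no p-values are given, and a mean ± SD over 5 cells describes the spread between those cells only. Values are ratios to a typical value of the same probe set, given as log2, so levels cannot be compared between genes or probe sets. A value of 0 is that typical value. In 69.5% of probe sets with a value in every cell it was the P6 median, so P6 values lie around 0 there. All differences are P30 minus P6.

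Pre-mRNA splicing is carried out by the spliceosome, which is built on each intron from small nuclear ribonucleoproteins (snRNPs). Each of the U1, U2, U4 and U5 snRNPs carries a ring of Sm proteins around its RNA. SR proteins bind exons and mostly favour their inclusion, while hnRNPs coat the nascent transcript and often oppose it. U2AF marks the 3′ splice site, SF3 proteins hold the U2 snRNP at the branch point, and PRPF proteins belong mostly to the U4/U6.U5 tri-snRNP and the catalytic spliceosome.

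Most of the 62 genes were lower in P30 cells. The mean was lower at P30 in 55 of 62, against 52.4% of all genes. The median difference was -0.84, against -0.05 over all genes. Under an over 3-fold rule, 19 genes (30.6%) were lower at P30, where 9.39% of all genes were, and 0 genes were higher, where 4.93% of all genes were. In 8 genes every P30 cell lay below every P6 cell, against 2.13% of all genes, and no gene had every P30 cell above every P6 cell, against 1.41% of all genes. The genes just inside and just outside the 3-fold limit were Hnrnpul2, 3.06-fold lower at P30, and Srsf10, 2.99-fold lower.

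**Figure D1:**
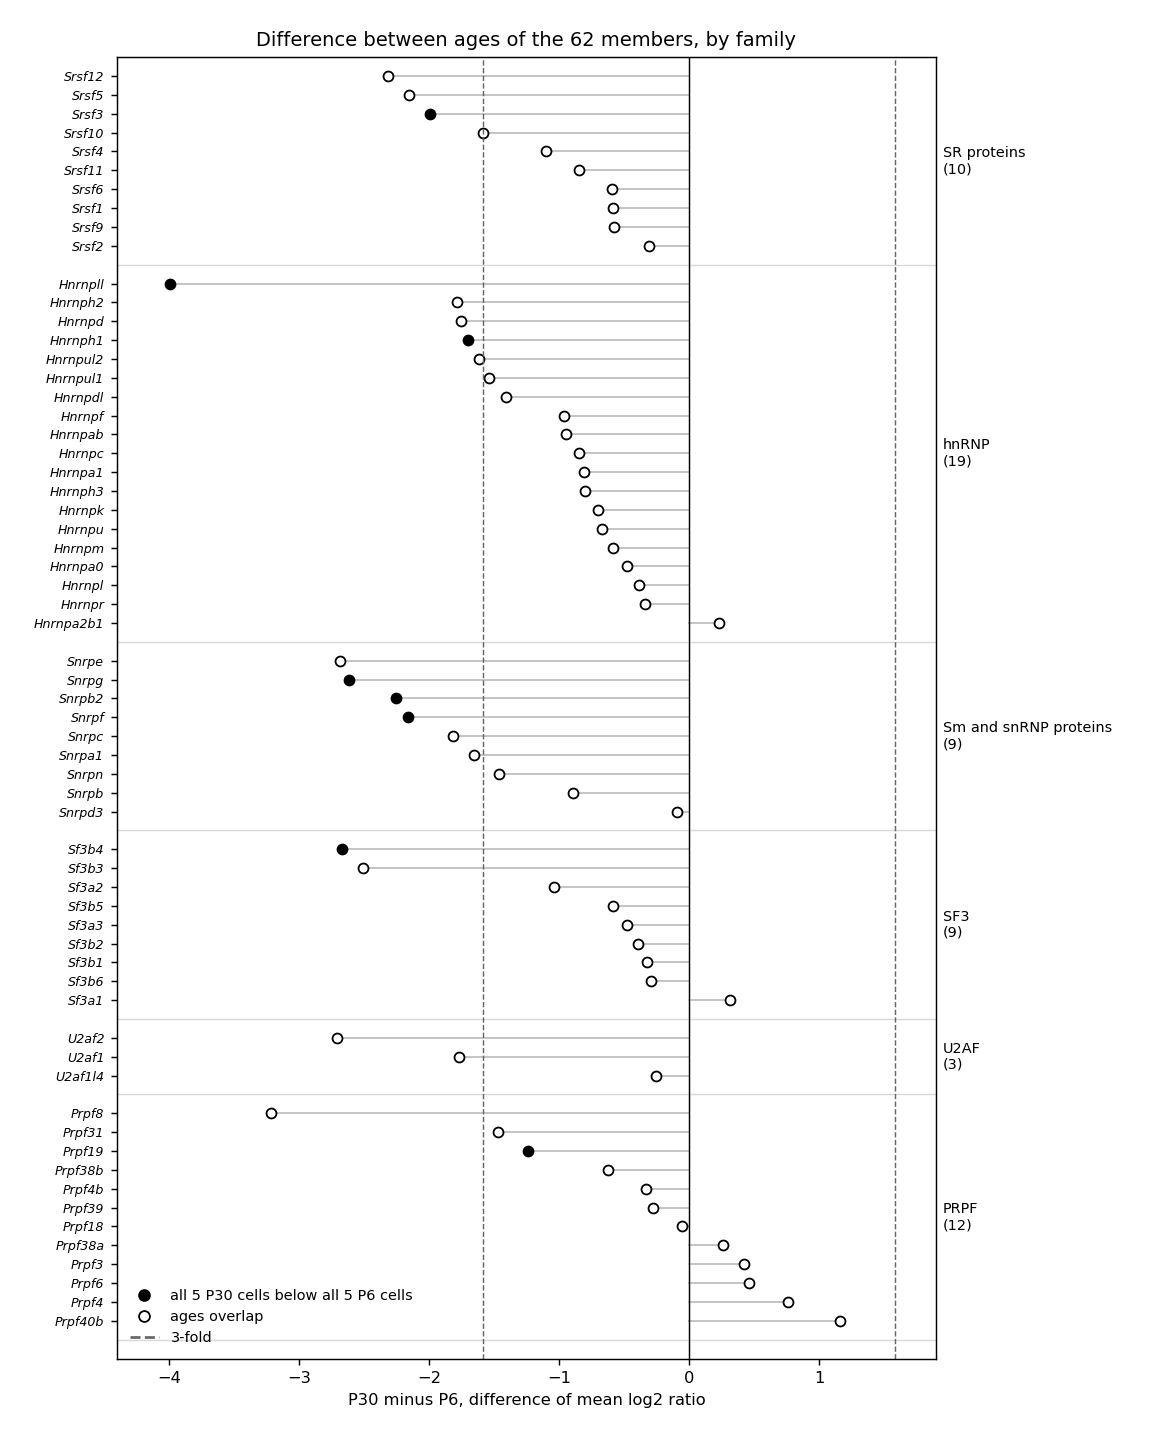
Difference of the mean log2 ratio, P30 minus P6 (x axis), of each of the 62 genes (y axis), grouped by family. Filled dots mark the 8 genes in which all 5 P30 cells lay below all 5 P6 cells, dashed lines mark 3-fold, and 55 of the 62 dots lie left of 0.

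The P30 cells were not equally low. The level of the 62 genes in a cell was taken as the median over genes of the deviation from the gene's own mean over the 10 cells. This level was -0.37, 0.05, -0.70, -0.82 and -0.39 in P30 replicates 1 to 5, against 0.46, 0.43, 0.45, 0.49 and 0.69 in P6 replicates 1 to 5. All P30 cells lay below all P6 cells, with P30 replicate 2 nearest to the P6 cells and P30 replicate 4 farthest from them. The SR, hnRNP and Sm and snRNP levels were likewise apart between the ages, whereas the SF3, U2AF and PRPF levels overlapped. Outside these genes, the level of translation factors was also apart, with P30 cells up to 0.04 and P6 cells from 0.13. The levels of proteasome subunits and of all genes overlapped. Counted gene by gene, 29, 22, 31, 31 and 33 of the 62 genes lay below every P6 cell in P30 replicates 1 to 5, where 18.7%, 19.6%, 19.6%, 21.9% and 25.7% of all genes did. Below the P6 median lay 43, 32, 47, 49 and 51 of the 62 genes, where 48.1%, 47.7%, 47.9%, 50.3% and 60.3% of all genes did. In P30 replicate 2 this count was close to the share of all genes.

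**Figure D2:**
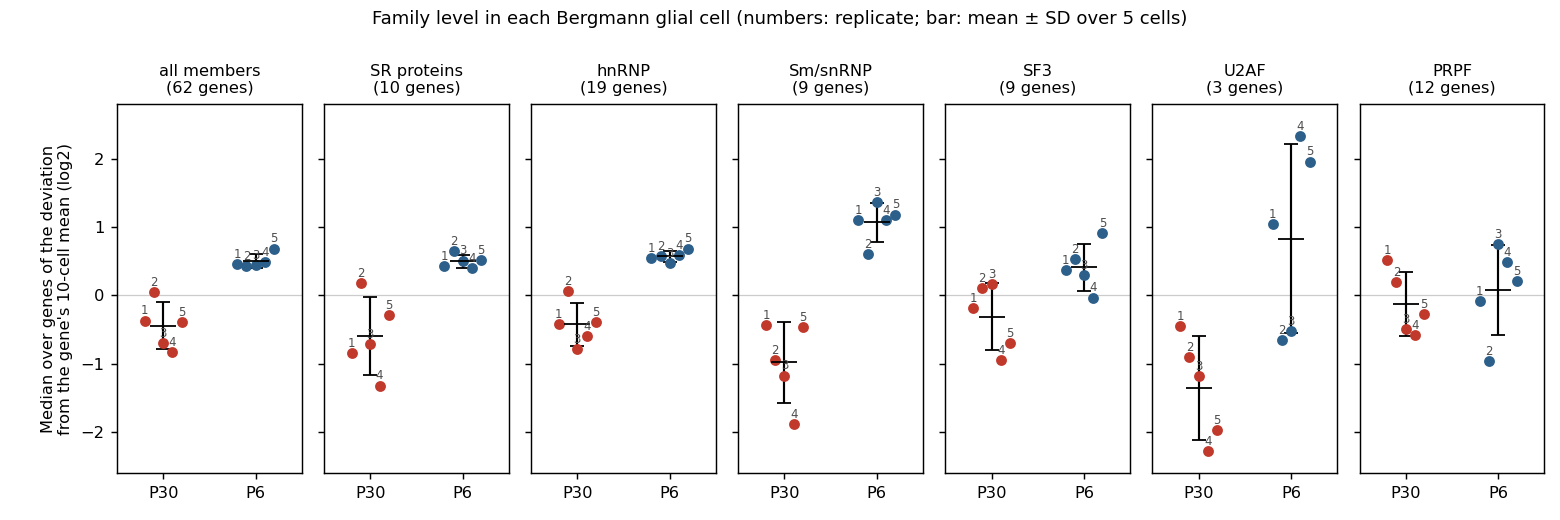
Level of all 62 genes and of each family in every cell (y axis: median over genes of the deviation from the gene's 10-cell mean, log2), P30 cells left and P6 cells right, each dot labelled by replicate, bars giving mean ± SD over 5 cells. The Sm and snRNP proteins show the clearest gap among the families, with P30 cells between -1.88 and -0.44 and P6 cells between 0.60 and 1.36.

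Other features of the cells moved with age too. A cell cycle list was lower at P30 in 14 of 14 genes, over 3-fold in 10, with a median difference of -2.57, and its level spanned -1.49 to -0.78 in P30 cells and -0.33 to 3.28 in P6 cells. P6 replicate 5 held the top of that range and also had the highest level of a neuronal list (1.47, with the other P6 cells between -0.62 and 0.07), and P30 replicate 5 had the highest level of an endothelial and pericyte list (2.38, with the other P30 cells between -1.01 and 0.22). P30 replicate 5 also had the lowest astroglial, Bergmann glial and microglial levels of the P30 cells (-0.52, -0.52 and -0.65). Its neuronal, granule neuron, Purkinje neuron and oligodendrocyte levels were the highest of the P30 cells (0.47, 0.55, 1.09 and 0.43). Astroglial markers differed less between the ages, with a median of 0.19 over 13 genes, 2 of them over 3-fold higher at P30. Oligodendrocyte markers were lower at P30 in 2 of 11 genes and over 3-fold higher in 2 (median 0.42), with levels of -0.23 to 0.43 in P30 cells and -0.48 to -0.03 in P6 cells, and the granule neuron and microglial lists had medians of -0.36 and -0.35; whether a marker was present or absent cannot be read from ratios. Without P6 replicate 5 the splicing genes over 3-fold lower at P30 numbered 14 (22.6%, against 9.67% of all genes) and their median difference was -0.85. With both replicates 5 left out, the count was again 14 (22.6%, against 10.5% of all genes) and the median -0.76. The part of the cell cycle in the splicing result was not tested.

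The Sm and snRNP proteins differed most of the larger families. All 9 had a lower mean at P30, 6 by over 3-fold, with a family median of -1.81. Snrpg encodes SmG, 1 of the proteins of the Sm ring. Its log2 ratios were -2.46, -2.78, -2.86, -3.22 and -1.90 in the P30 cells (replicates 1 to 5, as in all lists below), against -0.24, 0.15, 0.02, 0.01 and -0.11 in the P6 cells. The P6 cells were nearly alike and every P30 cell lay below them, a mean of -2.65 ± 0.49 at P30 and -0.03 ± 0.15 at P6 (SD, n = 5 cells each), or 6.11-fold lower at P30. Both of its probe sets were over 3-fold lower, by 2.48 and 2.74 on the log2 scale.

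Snrpf, which encodes SmF of the same ring, had log2 ratios of -2.26, -2.29, -2.19, -1.89 and -1.88 in P30 cells, against 0.54, -0.04, -0.75, 0.00 and 0.56 in P6 cells. This was the narrowest spread at P30 among the genes over 3-fold lower (mean -2.10 ± 0.20 at P30 and 0.06 ± 0.54 at P6), and the ages did not overlap at 4.48-fold. For Snrpe, encoding SmE, the P30 cells read -0.22, -0.79, -3.95, -6.64 and -1.66 and the P6 cells -0.04, 0.29, 0.22, 0.00 and -0.31. The 6.43-fold lower mean at P30 thus rested on cells that ranged widely, with replicate 4 at the lowest value allowed (a ratio of 0.01, or -6.64) and replicate 1 within the P6 range; without replicate 4 the difference was -1.69, and as a ratio of arithmetic means it was -1.50, under 3-fold. Snrpd3, encoding SmD3, differed least in this family (-0.10), with P30 replicate 4 at 3.05 and P6 replicate 1 at 4.00 far above the remaining cells of their ages. Its 3 probe sets differed by -1.84, 0.04 and 1.51, so the small gene value averaged opposite directions.

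Snrpb2 encodes the B″ protein of the U2 snRNP. It read -1.07, -4.19, -2.58, -2.59 and -1.26 in P30 cells and -0.82, 0.08, 0.44, -0.07 and -0.02 in P6 cells, 4.77-fold lower at P30 with no overlap. Only 1 of its 3 probe sets had no value at the floor of 0.01, and that one differed by -0.64. Snrpc, a U1 snRNP protein, and Snrpa1, the partner of Snrpb2 in U2, were 3.51-fold and 3.15-fold lower at P30, with overlapping ages. Snrpc was under 3-fold without P30 replicate 1 (-1.38), P30 replicate 4 (-1.51) or P6 replicate 5 (-1.27). Snrpa1 was under it without P30 replicate 2 (-0.82), P30 replicate 4 (-0.70) or P6 replicate 3, 4 or 5 (-1.48 to -1.30). The remaining Sm genes were Snrpn, the imprinted SmN gene known from neurons (-1.46, from 1 probe set), and Snrpb, encoding SmB (-0.89). Further probe sets, shared by Snrpn and Snurf and not counted here, differed by -3.10 to 0.55, all with overlapping ages.

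Among Sm and hnRNP genes read only through probe sets that name further genes, lower values at P30 were seen as well. A probe set for Snrpd1 and a predicted gene averaged -3.84 ± 2.67 in P30 cells and -0.13 ± 0.33 in P6 cells, with no overlap. One for Snrpd2 and a predicted gene averaged -1.74 ± 2.02 in P30 cells and -0.01 ± 0.30 in P6 cells, again with no overlap. A probe set for Snrpa and further predicted genes averaged -2.45 ± 2.74 in P30 cells and -0.68 ± 1.12 in P6 cells, with overlapping ages. The 4 probe sets shared by Hnrnpa3 and a predicted gene differed by -0.52 to -2.13. Which of the named genes gave these signals cannot be told apart.

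Promoters are shown for the genes that were both over 3-fold lower at P30 and free of overlap between ages, and for which RefSeq's table of mouse promoters (GRCm38.p6) gave exactly 1 start. These are 3 genes of the Sm and snRNP family and the SR gene Srsf3. Each line holds the 250 bases before the start, on the gene's strand from 5′ to 3′. Capitals mark the CCAAT box (CCAAT), the ETS core (CCGGAAG), the GC box (GGGCGG) and the TATA box (TATAAA), on either strand; no hits overlapped.
Snrpg, chr6:86371290-86371539, plus strand: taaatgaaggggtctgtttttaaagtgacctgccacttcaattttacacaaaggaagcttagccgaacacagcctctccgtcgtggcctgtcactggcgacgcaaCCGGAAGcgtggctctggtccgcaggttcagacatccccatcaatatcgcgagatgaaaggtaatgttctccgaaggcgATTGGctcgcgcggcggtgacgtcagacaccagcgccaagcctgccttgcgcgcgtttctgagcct
Snrpb2, chr2:143062819-143063068, plus strand: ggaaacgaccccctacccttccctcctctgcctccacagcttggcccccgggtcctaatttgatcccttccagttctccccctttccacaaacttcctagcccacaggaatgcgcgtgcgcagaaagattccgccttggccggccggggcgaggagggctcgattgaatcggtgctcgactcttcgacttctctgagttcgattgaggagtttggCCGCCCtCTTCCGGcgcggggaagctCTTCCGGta
Snrpf, chr10:93589659-93589908, minus strand: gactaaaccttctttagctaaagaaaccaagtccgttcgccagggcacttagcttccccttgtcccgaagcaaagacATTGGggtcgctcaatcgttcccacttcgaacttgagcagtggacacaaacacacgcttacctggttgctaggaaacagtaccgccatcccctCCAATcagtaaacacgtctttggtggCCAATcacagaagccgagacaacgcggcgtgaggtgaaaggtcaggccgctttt
Srsf3, chr17:29032410-29032659, plus strand: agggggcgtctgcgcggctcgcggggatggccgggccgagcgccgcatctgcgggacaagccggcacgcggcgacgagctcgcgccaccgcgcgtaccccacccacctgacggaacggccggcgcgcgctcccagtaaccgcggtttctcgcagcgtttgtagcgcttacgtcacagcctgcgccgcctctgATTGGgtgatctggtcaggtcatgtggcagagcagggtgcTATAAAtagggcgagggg

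The 4 promoters did not share 1 motif. The window of Snrpg held a CCAAT box on the minus strand and an ETS core on the plus strand, starting 66 and 145 bases before the gene's start. That of Snrpb2 held 2 ETS cores and a GC box, all on the minus strand and within 35 bases of the start. Snrpf had 3 CCAAT boxes, and Srsf3 had 1 CCAAT box and a TATA box that began 18 bases before the start. Over the 75 windows of the 55 genes with an entry, a CCAAT box was found in 48%, an ETS core in 28%, a GC box in 61.3% and a TATA box in 6.67%. The shares over the 17770 windows of all genes measured were 34.7%, 10.3%, 48.8% and 8.69%, and over all 32851 windows 33.8%, 6.91%, 32.7% and 12.4%. A match describes the letters only and was set against no binding data.

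All 10 SR proteins had a lower mean at P30, 3 of them by over 3-fold, with a median of -0.97. Srsf3, the smallest of the classical SR proteins, which also takes part in mRNA export, had log2 ratios of -3.68, -1.45, -2.39, -2.25 and -1.59 in P30 cells, against -0.58, -0.82, -0.48, 0.33 and 0.15 in P6 cells. The ages did not overlap and the mean was 3.98-fold lower at P30 (-2.27 ± 0.89 at P30 and -0.28 ± 0.49 at P6). All 6 of its probe sets were lower at P30, 4 of them by over 3-fold, with differences of -3.49 to -0.42. In most of these probe sets taken alone the ages overlapped. With a floor of 0.1 the gene differed by -1.39, under 3-fold.

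The larger differences of Srsf12 and Srsf5 lay within the spread between cells. Srsf12, which in human cells opposes other SR proteins, read -6.64, -6.13, -5.77, -5.70 and -1.75 in P30 cells and 0.00, 1.30, -6.64, -6.64 and -2.42 in P6 cells, so that low cells occurred at both ages. Srsf5, an SR protein that binds exonic enhancers, read -3.63, 0.15, -0.58, -2.77 and -2.28 in P30 cells and -0.74, 3.15, 0.00, -3.24 and 2.50 in P6 cells. Without P6 replicate 2, neither gene was over 3-fold lower at P30 (-1.27 for Srsf12 and -1.45 for Srsf5).

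Srsf10, a regulator that represses splicing in its dephosphorylated form, differed by -1.58, but its 4 probe sets did not point the same way. They ranged from -4.44 to 2.48, and with the probe sets that touched the floor left out its difference was 0.23. The other SR genes differed by -1.10 (Srsf4) to -0.31 (Srsf2, a founding member also known as SC35). Srsf9, Srsf1 and Srsf6 lay near the middle of this range, each between -0.60 and -0.58. The 7 probe sets of Srsf1 went both ways, from -1.60 to 1.15, with 4 lower at P30.

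Among the hnRNPs, 18 of 19 had a lower mean at P30, 5 of them by over 3-fold, with a median of -0.84. Hnrnpll differed most of all 62 genes. This protein is known from lymphocytes, where it drives the switch in Ptprc (CD45) exons. Its log2 ratios were -4.16, -2.74, -5.92, -4.62 and -5.57 in P30 cells, against -0.64, -0.32, -2.49, 1.46 and -1.04 in P6 cells. Every P30 cell lay below every P6 cell, though P30 replicate 2 and P6 replicate 3 were close. Its 2 probe sets differed by -4.30 and -3.69, but in each of them taken alone the ages overlapped. With a floor of 0.1 in place of 0.01 the gene differed by -2.45.

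The hnRNP F/H proteins, which bind runs of G, were all lower at P30, with a median of -1.33 over 4 genes. Hnrnph1 read -3.78, -1.96, -0.42, -1.62 and -0.73 in P30 cells and 0.08, 0.12, 0.16, -0.06 and -0.30 in P6 cells. The P6 cells were tightly grouped and the P30 cells spread below them without overlap (3.25-fold), though without P30 replicate 1 the difference was -1.18. Hnrnph2, an X-linked relative, read -1.19, 0.04, -2.23, -2.56 and -2.66 in P30 cells and 0.25, -0.26, -0.22, 0.52 and 0.00 in P6 cells, with P30 replicate 2 alone inside the P6 range and a difference just under 3-fold without P30 replicate 4 or 5 (-1.57 and -1.55). Hnrnpf differed by -0.97, with all 4 probe sets lower by 0.83 to 1.13, and Hnrnph3 differed by -0.80.

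Hnrnpd (AUF1), which binds AU-rich elements and speeds mRNA decay, was 3.37-fold lower at P30 on average. Its values of -3.68, -1.60, -4.22, -5.18 and -2.80 in P30 cells overlapped those of -1.43, -3.19, -2.12, -2.14 and 0.16 in P6 cells, and without P30 replicate 3, P30 replicate 4 or P6 replicate 5 the difference was between -1.57 and -1.28. Hnrnpul2 was also over 3-fold lower, but its 2 probe sets differed by -3.67 and 0.45, and without P30 replicate 3 or 4 or P6 replicate 4 or 5 its difference was between -1.50 and -1.14. By contrast, Hnrnpa2b1, a repressor of exons that also carries mRNAs along processes, was the only hnRNP with a higher mean at P30. It averaged 0.31 ± 0.47 in P30 cells and 0.08 ± 0.21 in P6 cells, a difference of 0.23. With arrays scaled to the hybridisation spikes this difference was -0.06. The 4 probe sets of Hnrnpa2b1 went both ways, from -0.65 to 1.01, with 1 lower at P30. The core hnRNPs Hnrnpc, Hnrnpa1, Hnrnpk, Hnrnpu and Hnrnpm differed by -0.84 to -0.59, with overlapping ages. Some of these averages joined unlike probe sets. The 5 probe sets of Hnrnpu ranged from -2.01 to 1.38, and a probe set at -1.75 had no overlap between ages. Those of Hnrnpc ranged from -2.06 to -0.02. Probe sets shared by Hnrnpa1 and further genes, not counted here, differed by -2.03 to -1.12, all with overlapping ages.

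**Figure D3:**
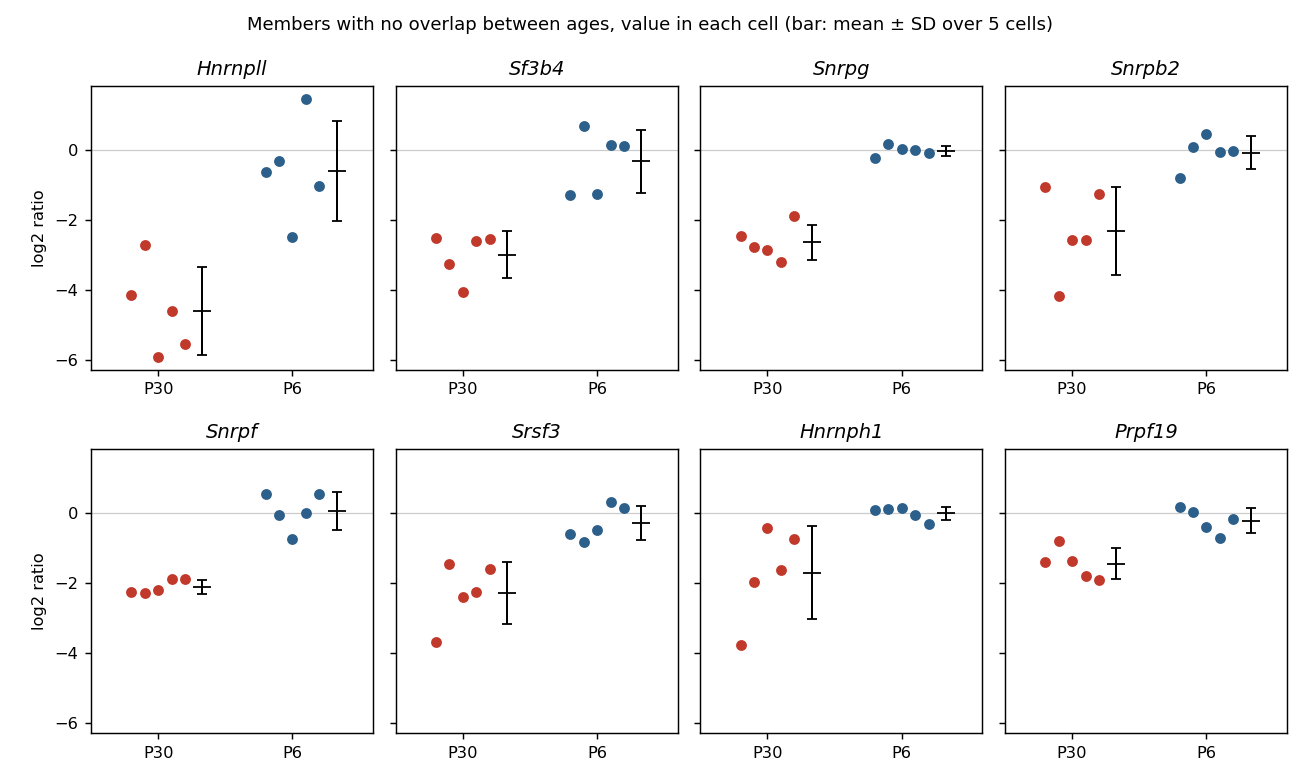
Log2 ratio (y axis) of the 8 genes in which no P30 cell overlapped a P6 cell, 1 dot per cell, P30 left and P6 right, bars giving mean ± SD over 5 cells. Snrpg and Hnrnph1 vary little among P6 cells (SD 0.15 and 0.19), and Hnrnpll shows the lowest P30 mean (-4.60).

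Of the SF3 proteins, 8 of 9 had a lower mean at P30, 2 by over 3-fold, with a median of -0.48. Sf3b4, an SF3b subunit that contacts the pre-mRNA near the branch point, read -2.53, -3.25, -4.06, -2.61 and -2.54 in P30 cells and -1.29, 0.69, -1.28, 0.13 and 0.09 in P6 cells. All P30 cells lay below all P6 cells, a mean 6.35-fold lower at P30, and both probe sets were lower (-3.73 and -1.60). Sf3b3, another SF3b subunit, was 5.70-fold lower at P30, with values of -3.44, -5.91, -2.90, -5.04 and -4.32 in P30 cells and -3.52, -3.32, 0.78, -3.22 and 0.21 in P6 cells. Of its 2 probe sets, 1 was at the floor in 4 P30 cells and 3 P6 cells, and with medians over cells the gene differed by -1.10, under 3-fold.

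The rest of the SF3 family showed smaller differences. Sf3a2 differed by -1.04, Sf3b5 by -0.58, Sf3b1 (the subunit that clamps the branch point and is often mutated in human blood cancers) by -0.32 and Sf3b6, a branch point protein, by -0.29. Sf3a1 alone had a higher mean at P30 (0.32). For Sf3a2 and Sf3b5, probe sets that may cross-hybridise weighed on the value, and without them the differences were -1.86 and -2.01.

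U2af2, the large U2AF subunit that binds the polypyrimidine tract, had log2 ratios of -2.40, -2.86, -3.13, -4.24 and -3.92 in P30 cells, against -0.92, 0.00, -2.48, 0.37 and 0.00 in P6 cells. Only P6 replicate 3 fell inside the P30 range, and the mean was 6.53-fold lower at P30. U2af1, its small partner that reads the AG at the intron's end, read 2.32, -3.05, -2.86, 1.56 and -4.73 in P30 cells and 3.46, -2.11, 0.00, -1.0 and 1.74 in P6 cells. High and low cells thus occurred at both ages, and its 3.41-fold lower mean was under 3-fold without P30 replicate 2, 3 or 5 or P6 replicate 1 or 5 (differences of -1.44 to -0.93). U2af1l4, a relative of U2af1, differed by -0.26, and each of the 3 genes was read by 1 probe set.

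The PRPF family stood closest to all genes, with 7 of 12 genes lower at P30, 1 over 3-fold and a median of -0.16. Prpf8, the central scaffold of the catalytic spliceosome, differed most. It read -0.04, -1.23, -6.02, -5.74 and -1.34 in P30 cells and -0.23, 0.00, 1.80, 1.41 and -1.29 in P6 cells, 9.27-fold lower at P30 on average, with P30 replicates 3 and 4 far below the remaining cells and differences of -2.43 and -2.50 without each of them. With medians over cells Prpf8 differed by -1.34, under 3-fold. Prpf19, the ubiquitin ligase of the Prp19 complex, showed the opposite pattern of a small difference and little spread, with -1.38, -0.78, -1.35, -1.80 and -1.92 in P30 cells and 0.19, 0.02, -0.40, -0.70 and -0.15 in P6 cells. Its ages did not overlap at 2.36-fold, and all 5 of its probe sets were lower at P30.

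The tri-snRNP proteins of this family did not move together. Prpf31 had a lower mean at P30 (-1.47), while Prpf3, Prpf6 and Prpf4 had higher means (0.42, 0.46 and 0.76), all with overlapping ages. Prpf40b, a U1-associated protein, had the largest positive difference of the 62 genes (1.16), set by 1 low P6 cell: without P6 replicate 2, at -6.09, its difference was -0.10. Prpf18, a factor of the second catalytic step, differed least (-0.05), with P30 cells from -0.58 to 0.60 and P6 cells from -0.91 to 0.51.

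Most of the 62 genes varied more among P30 cells than among P6 cells, though not in every family. The SD over 5 cells was larger at P30 in 40 of 62 genes (64.5%, against 54.7% of all genes), as it was in 65.5% of translation factors and 69.4% of proteasome subunits. The median SD was 1.19 in P30 cells and 0.63 in P6 cells, where over all genes it was 0.97 in P30 cells and 0.92 in P6 cells. The larger SD at P30 was most marked in the hnRNPs, with 16 of 19 genes, and the Sm and snRNP proteins, with 7 of 9. In the other families it was found in 5 of 10 SR, 4 of 9 SF3, 2 of 3 U2AF and 6 of 12 PRPF genes. The opposite was found for Snrpf, Sf3b4, Sf3b3 and U2af2, among others, whose values varied less at P30 than at P6. Values at the floor made up 3.33% of the probe set values of these genes in P30 cells and 1.84% in P6 cells. In the 48 genes with no value at the floor, 42 were lower at P30, 11 of them over 3-fold (22.9%, against 6.60% of all such genes), with a median of -0.69.

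Probe sets of the same gene often disagreed in size and sometimes in direction. Of the 174 probe sets, 132 were lower at P30, 53 by over 3-fold, and 2 were over 3-fold higher, whereas over all probe sets 11.1% were over 3-fold lower and 6.6% over 3-fold higher. In 19 of them every P30 cell lay below every P6 cell, and in 0 above, against 1.79% below and 1.2% above over all probe sets. Among the 43 genes with 2 or more probe sets, all probe sets had the same sign in 24, of which 21 were lower at P30, and the difference spanned more than 3-fold between probe sets in 24. Srsf10 and Prpf4b, a kinase of the tri-snRNP, each had a probe set past 3-fold in both directions. At the other end, Snrpg, Snrpb, Hnrnph1, Hnrnpf and Sf3b6 had probe sets that lay within 0.30 of each other.

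**Figure D4:**
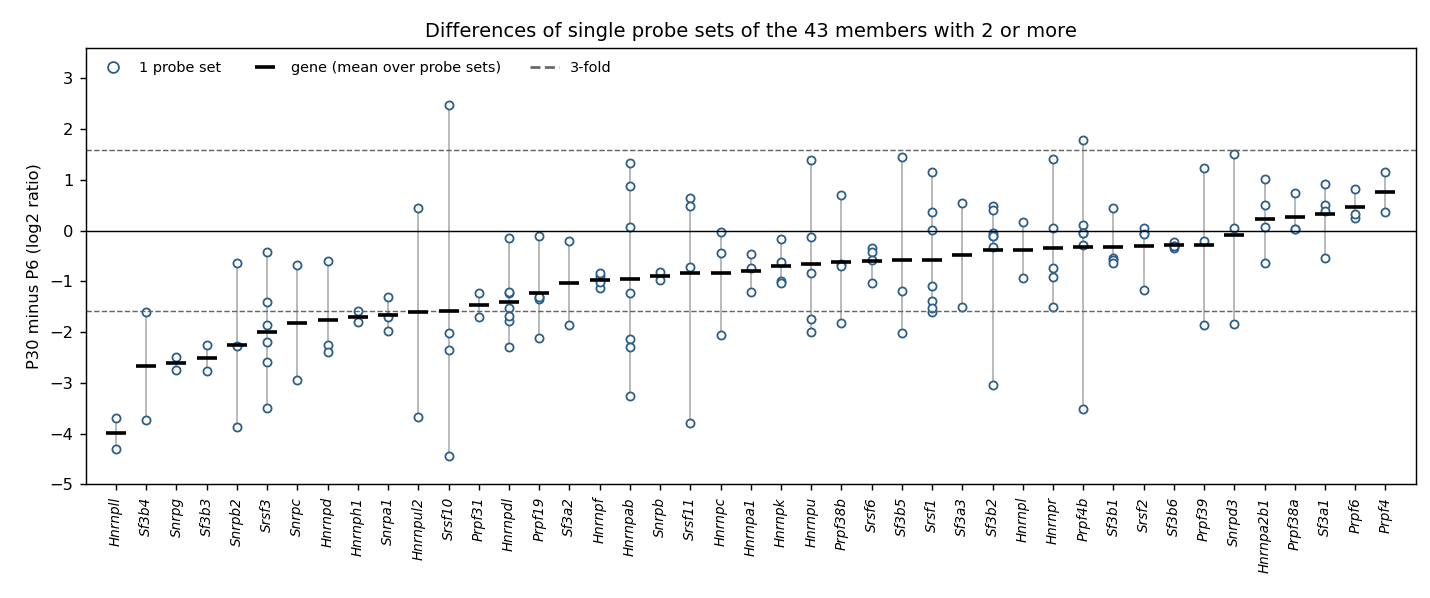
Difference of each probe set, P30 minus P6 (y axis, log2 ratio), for the 43 genes with 2 or more probe sets (x axis, ordered by the gene's mean difference, black bars); dashed lines mark 3-fold. Probe sets of Hnrnpll, Snrpg and Sf3b3 all lie beyond 3-fold lower, while those of Srsf10 span -4.44 to 2.48.

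Other genes of the splicing pathway, on lists drawn from textbook knowledge, were also mostly lower at P30, with smaller differences. Of 149 genes listed, 134 were measured, 101 had a lower mean at P30, 19 (14.2%) were over 3-fold lower and 2 over 3-fold higher, with a median of -0.66. Over all genes 52.4% were lower, 9.39% over 3-fold lower and 4.93% over 3-fold higher. The SMN complex, which loads the Sm ring onto snRNAs, was lower in 7 of 7 genes (median -1.30). Gemin2 and Smn1, its core, were 16.2-fold and 12.8-fold lower at P30, but Gemin2 ranged from -6.64 to 2.86 in P30 cells and from -3.13 to 1.82 in P6 cells. Smn1 ranged from -5.60 to -0.16 in P30 cells and from -2.10 to 1.48 in P6 cells, so that both genes overlapped between ages.

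Among 15 U6 and tri-snRNP proteins outside the 6 families, 12 were lower and 4 over 3-fold lower (median -1.15). Snrnp40, a U5 protein, read -0.89, -5.35, -2.65, -6.54 and -3.77 in P30 cells and -0.61, 0.58, -0.47, 0.00 and 0.11 in P6 cells, all P30 cells below all P6 cells at 13.6-fold. Lsm2, of the Lsm ring on U6, was 7.27-fold lower with overlap. In the opposite direction, Ddx23, the helicase that frees the 5′ splice site from U1, read 0.65, 4.07, 1.85, 0.16 and 1.88 in P30 cells and -0.64, -1.18, -1.37, -0.58 and -0.95 in P6 cells. All its P30 cells lay above all its P6 cells, 6.36-fold higher at P30. Dhx8, the helicase that releases spliced mRNA, was 8.34-fold higher, also without overlap, with P30 replicate 3 (6.80) far above the other P30 cells (0.53 to 1.75).

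The share over 3-fold lower differed among the remaining lists. In the Prp19 complex and catalytic factors 16 of 24 were lower and 2 (8.33%) over 3-fold lower, near the share of all genes, led by Cwc25 (3.48-fold). Among U1 and U2 associated proteins 14 of 17 were lower and 2 (11.8%) over 3-fold lower, also near the 9.39% of all genes. These were Sugp1 (3.86-fold, with 1 value at the floor in P30 cells) and the SF3b component Phf5a (3.13-fold), both with overlapping ages. Phf5a, read by 1 probe set, was at -5.03 in P30 replicate 2 and between -2.06 and 0.32 in the other P30 cells. In the minor spliceosome, which removes a rare class of introns, 6 of 7 were lower, led by Snrnp35 (9.23-fold, with 4 P30 cells and 1 P6 cell at the floor) and Snrnp25 (5.84-fold). All 6 exon junction complex genes were lower, 0 of them over 3-fold, Rbm8a most (2.04-fold).

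The kinases and import factors of SR proteins were lower in 6 of 9 and over 3-fold lower in 2 (22.2%, against 9.39% of all genes). These were Clk3 (4.58-fold) and Clk2 (3.80-fold), both with overlapping ages. Clk2 was at the floor in P30 replicate 4 (-6.64), while its other P30 cells lay between -1.46 and 0.51. SR-like proteins were lower in 13 of 18 and over 3-fold lower in 2 (11.1%), near the share of all genes, namely Ppig (4.51-fold) and Rbm25 (3.13-fold). Of 31 tissue-regulated splicing regulators 21 were lower and 3 (9.68%) over 3-fold lower, about the share of all genes. These included Khdrbs3, 13.3-fold lower with overlap, and its relative Khdrbs1 (Sam68), which read -2.13, -1.53, -1.77, -1.89 and -3.26 in P30 cells and -0.15, -0.88, 0.26, 0.36 and -0.11 in P6 cells. For Khdrbs1, read by 6 probe sets, the ages did not overlap at 4.03-fold.

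Translation initiation and elongation factors and proteasome subunits, chosen as other families of widely expressed genes, were set beside the 62 genes. Of 58 translation factors 44 were lower at P30 and 11 (19.0%) over 3-fold lower, with a median of -0.47. Of 49 proteasome subunits 34 were lower and 9 (18.4%) over 3-fold lower, with a median of -0.36. Both stood between the splicing genes and all genes; with 1 sample per age the difference between the families could not be tested.

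**Figure D5:**
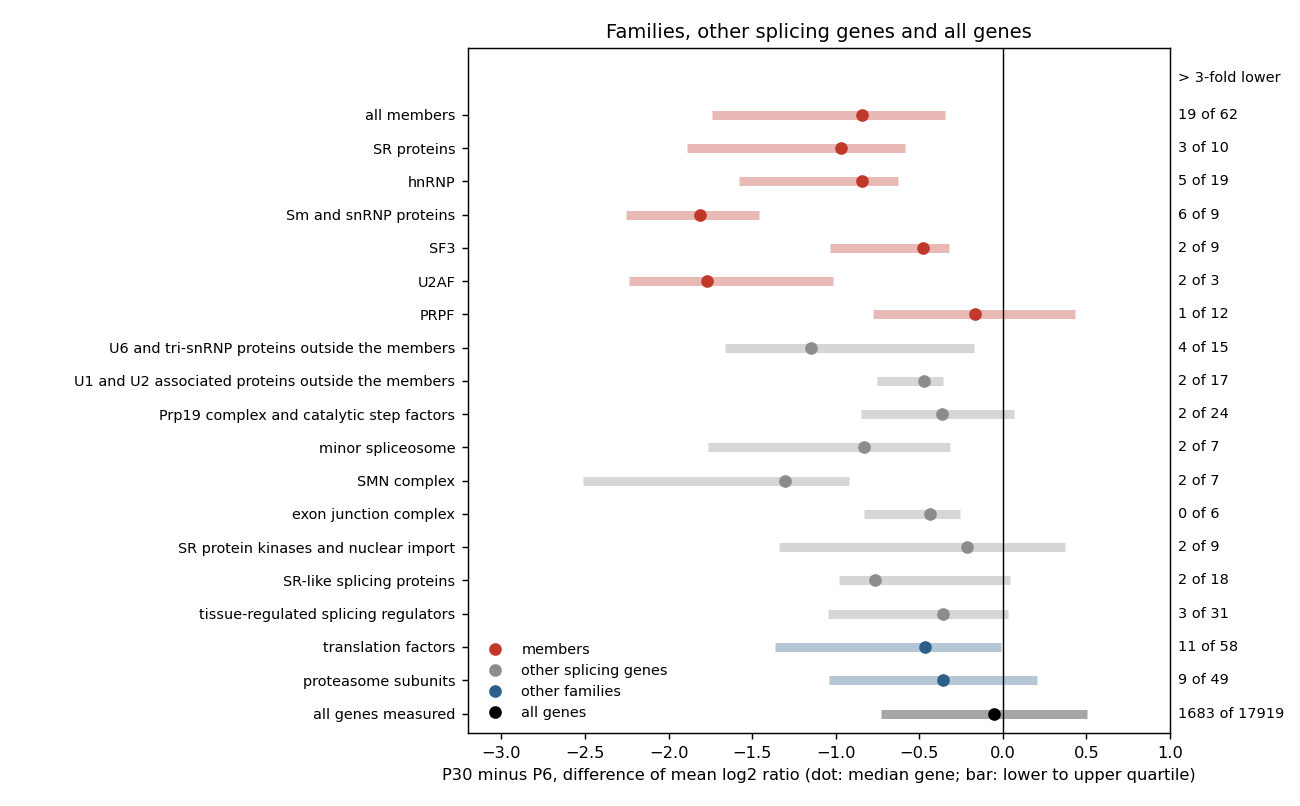
Median (dot) and lower to upper quartile (bar) of the P30 minus P6 difference (x axis, log2) over the genes of each list (y axis), with the number over 3-fold lower at P30 on the right. The Sm and snRNP proteins have the lowest median (-1.81), and all genes measured have a median of -0.05.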

How the data were processed

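Amplified cDNA of 10 single GFP+ Bergmann glia, 5 at P30 and 5 at P6, was hybridised to 1 array each. According to the methods, the authors processed the scans with RMA in GeneSpring GX, set values below 0.01 to 0.01, scaled every array to its own median signal and then divided each probe set's values by their median across samples; the deposited values are linear ratios. In 69.5% of complete probe sets the P6 median was at a ratio of 1, and in 1.66% the median of all cells was, so ratios were read as relative to P6. The genome build is not given in the sources used here. The file held 45101 probe sets, 43608 with a value in every cell; 10 zeros were set to 0.01. Probe sets with exactly 1 gene in the platform annotation (34958) were averaged per gene as log2. Differences are of means over cells, called past 3-fold; arrays give no read depth, and 5 cells per age limit the precision. The labels call the cells biological replicates but name no animals, so no test was run. The median log2 ratio was -0.46 in P30 replicate 5 and between -0.14 and 0.00 in the other 9, and hybridisation spikes (9 probe sets) averaged between -0.44 and 0.50.

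Genes named are, in each family, the 4 largest differences, the smallest and any over 3-fold higher at P30, and in each pathway list the 2 largest past 3-fold or else the 1 largest; Ddx23, Hnrnpul2 and other genes given by difference only were added after their values were seen. The genes and lists were chosen with earlier results of these data known. The motifs searched in promoters were also chosen then. Alternatives were another scaling, floor, average, probe set choice and each cell left out. Computations used Python 3.11.15, NumPy 2.4.6 and pandas 2.3.3 and were tested on simulated data.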

Additional observations from a re-analysis of the deposited data

Results flagged for a closer look

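Among the genes named and the family levels, 104 groups of 5 cells were examined for a single cell far from the others. In 10 (9.62%) there was one, 7 of these at P30 and 3 at P6. Chance gives about 5% only in independent groups not picked by their values. Most genes here were named for a large difference, which 1 extreme cell can raise, and values were cut at the floor. The 9.62% therefore cannot be read as an excess. Among the splicing genes, Srsf12 read -1.75 in P30 replicate 5, with the next cell at -5.70, and Snrpd3 read 3.05 in P30 replicate 4, with the next cell at 0.07. Prpf40b read -6.09 in P6 replicate 2, far below the next cell at -0.43. The level over all 62 genes was 0.69 in P6 replicate 5, with the next P6 cell at 0.49. In the pathway lists, Dhx8 read 6.80 and Cwc25 0.55 in P30 replicate 3, Snrnp35 1.99 in P30 replicate 1 and Gemin2 2.86 in P30 replicate 2, each far above the other P30 cells. Clk2 read -6.64 in P30 replicate 4, far below the other P30 cells, and Clk3 read 1.32 in P6 replicate 4, far above the other P6 cells. No cause of these single values was tested.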

How the results depend on the processing

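Over 19 alternatives, the median difference of the 62 genes stayed negative and 48 to 57 genes had a lower mean at P30, of which 47 to 55 were among the 55 lower as deposited. Of the 19 genes over 3-fold lower, 10 remained so without each single cell, and Hnrnpll, Sf3b4, Snrpf, Snrpg and U2af2 under every alternative. Scaling each array to its median moved the median of all genes by 0.16, to 0.11, and scaling to the spikes by -0.29, to -0.34; such scaling shifts all genes alike. Median scaling left 3 hnRNPs over 3-fold lower, without Hnrnph1 and Hnrnpul2. With spikes the median was -1.14 over the 62 genes and -1.14 over hnRNPs, 2 PRPF genes were over 3-fold lower, Hnrnpa2b1 and Prpf38a turned lower at P30, and over all genes 13.2% were over 3-fold lower and 3.32% higher, against 9.39% lower and 4.93% higher as deposited. A floor of 0.1 left 11 genes over 3-fold lower (17.7%, against 6.55% of all genes). They were 1 SR, 3 hnRNP, 3 Sm and snRNP and 1 U2AF gene, with the 2 SF3 genes and 1 PRPF gene as before. Srsf3, Srsf12, Hnrnpd, Hnrnpul2, Snrpb2, Snrpc, Snrpa1 and U2af1 were no longer past 3-fold. Medians over cells put 1 gene, Prpf6, over 3-fold higher at P30, 1 SF3 gene over 3-fold lower (Sf3b3 no longer past it, nor Prpf8), the Sm and snRNP median at -1.30 and the PRPF median at 0.011, turned in sign. With arithmetic means 2 hnRNPs, 1 U2AF and 2 PRPF genes were over 3-fold lower. The median over its 3 probe sets put Hnrnpd at -3.08. Without probe sets that may cross-hybridise, 4 SF3 genes were, and without those at the floor 3 Sm and snRNP genes.

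Leaving out each cell gave 14 (without P6 replicate 5) to 20 genes over 3-fold lower and 0 to 1 higher (Prpf40b, without P6 replicate 4). The share over 3-fold lower was 22.6% to 32.3% of the 62 genes, against 9.18% to 10.7% of all genes. It gave 3 to 6 hnRNPs, 1 to 2 U2AF and 1 to 2 PRPF genes over 3-fold lower, and a PRPF median of -0.39 to 0.10, the high end without P30 replicate 3. The hnRNP count was 3 without P30 replicate 3, P30 replicate 4 or P6 replicate 5. Leaving out both replicates 5, chosen after seeing the data, put Prpf4 and Prpf40b (2 genes) over 3-fold higher, left 2 hnRNPs and 1 U2AF gene over 3-fold lower and moved the U2AF median to -0.59. The cause of these changes was not tested beyond the cells or probe sets left out. No paired analysis was possible because replicate numbers only name cells and the results come from no test. With 5 cells per age and ratios only, differences within the spread between cells could not be resolved.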
